A study of Mus musculus with 6 samples.

Results

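The 36 genes described here are markers of the 3 main nonparenchymal cell types of the liver sinusoid, chosen by gene symbol from the 23282 genes of the count files. Of these, 13 (*Stab1* to *Kit* in the order given below) mark sinusoidal endothelial cells, 11 (*Lrat* to *Lhx2*) mark hepatic stellate cells and 12 (*Clec4f* to *Folr2*) mark Kupffer cells. All 36 symbols named a gene in the files, and all 36 passed the filter on low counts, which kept 14076 genes. The study asked how loss of the transcription factor TCF7L2 in liver cells alters hepatic metabolism, and mRNA of whole liver was sequenced from 3 wild-type mice (WT) and 3 knockout mice (LKO). Both genotypes were of the strain C57BL/6 by the labels (C57BL/6N in the study's methods), carrying *Tcf7l2* f/f, that is, *Tcf7l2* alleles floxed at an exon, and aged 12 weeks by the labels. The knockout mice also carried *Alb-Cre* (*Alb-Cre;Tcf7l2* f/f), in which the albumin promoter drives Cre recombinase in the hepatocyte lineage, to which none of the cell types marked here belong. All 6 mice were fasted for 24 h and then refed normal chow for 24 h. Libraries are named by the numbers in their labels, and values per library follow the order WT 7-2, WT 8-1 and WT 8-3, then LKO 7-2, LKO 7-3 and LKO 8-3.

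Sinusoidal endothelial cells form the fenestrated lining of the liver capillaries and clear macromolecules from blood through scavenger receptors such as the stabilins. Stellate cells lie between this lining and the hepatocytes, store vitamin A as retinyl esters, and are the main source of scar matrix once activated. Kupffer cells are the resident macrophages inside the sinusoid, which bind and engulf bacteria, old red cells and debris. These cells exchange signals with hepatocytes, for example endothelial BMP2, which raises hepcidin synthesis, and endothelial Wnt ligands, which act on hepatocyte TCF factors.

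The 6 libraries held 60619938 to 133384586 counts. The *Mup* genes, which encode abundant secreted urinary proteins, made up 31.7% to 54.3% of each wild-type and 18.5% to 28.7% of each knockout library. Levels are therefore given as CPM (counts-per-million), with library sizes scaled by TMM factors (trimmed mean of M values, from 0.628 to 1.40). Scaling by library sizes alone moved the median over all 14076 genes from -0.017 to 0.61 (log2 fold change), so a direction under that scaling is read relative to this shift. *Tcf7l2* mRNA stood at 4.88, 6.13 and 6.85 CPM in wild-type and at 3.31, 2.74 and 3.33 CPM in knockout livers, and the genotypes did not overlap (log2 fold change -0.93, SE 0.19, edgeR adjusted *p* = 0.0856, DESeq2 adjusted *p* = 0.00274). Each library was taken as 1 mouse, and *p*-values measure the spread between these libraries. In bulk liver, fewer cells of a type and less of its RNA per cell cannot be told apart.

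Endothelial and stellate markers were higher in knockout livers relative to Kupffer markers, a comparison made within each library and therefore free of the scaling. The summed level of the endothelial markers over that of the Kupffer markers was 1.13, 0.956 and 0.918 in wild-type livers and 1.43, 1.61 and 1.49 in knockout livers. Every knockout ratio lay above every wild-type ratio, and the means were 1.00 ± 0.115 and 1.51 ± 0.0904 (SD, *n* = 3 each). The ratio of stellate to Kupffer markers was 0.477, 0.340 and 0.326 in wild-type and 0.642, 0.693 and 0.684 in knockout livers. These ratios did not overlap either, with means of 0.381 ± 0.0838 and 0.673 ± 0.0276. The ratio of stellate to endothelial markers was 0.421, 0.356 and 0.355 in wild-type and 0.449, 0.432 and 0.459 in knockout livers, so WT 7-2 came close to the lowest knockout liver. The members were chosen with earlier results of these data known, so these ratios are given without a test.

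On the CPM scale, the summed endothelial level was 108 ± 4.86 CPM in wild-type livers and 133 ± 3.54 CPM in knockout livers (SD, *n* = 3 each), a ratio of 1.22. The summed stellate level was 40.9 ± 3.70 CPM in wild-type livers and 59.2 ± 3.29 CPM in knockout livers, a ratio of 1.45. Neither sum overlapped between the genotypes. *Ecm1* alone made up 13.5 CPM of the stellate sum in wild-type livers and 20.6 CPM in knockout livers. The summed Kupffer level was 93.6, 119 and 115 CPM in wild-type livers and 94.5, 80.0 and 90.0 CPM in knockout livers, so that WT 7-2 fell among the knockout livers. The sums rested on 7049 to 11558 counts per library for the endothelial, 2539 to 5304 for the stellate and 6074 to 9991 for the Kupffer markers.

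**Figure D1:**
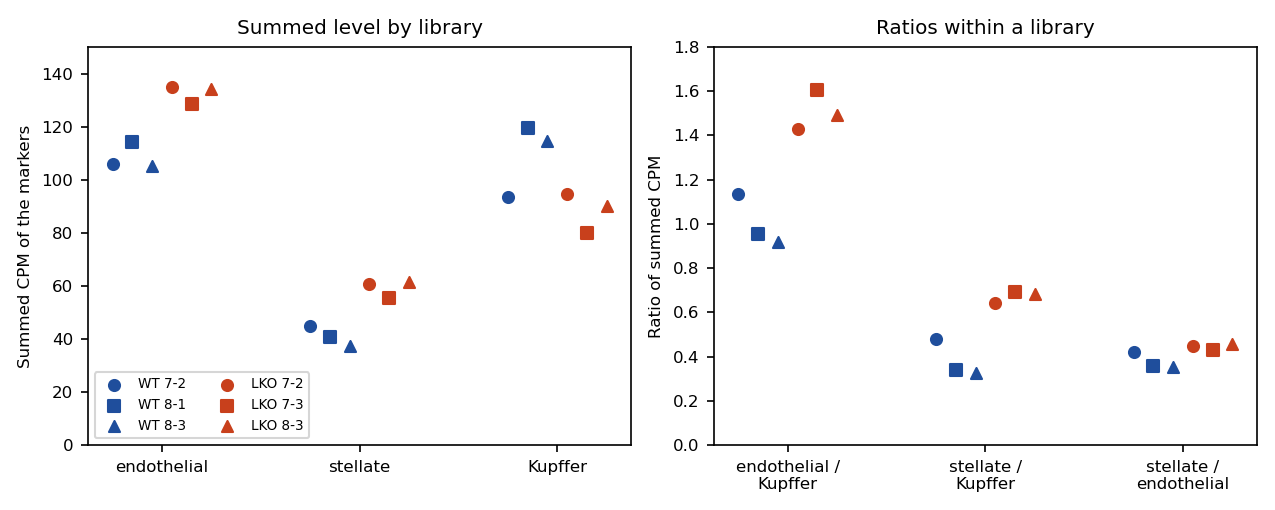
Summed CPM (TMM-scaled) of the endothelial, stellate and Kupffer markers in each library (left) and ratios of these sums within a library (right), with 1 point per library, wild-type in blue and knockout in red. The endothelial to Kupffer ratio was 0.918 to 1.13 in wild-type and 1.43 to 1.61 in knockout livers, and the Kupffer sums of WT 7-2 (93.6 CPM) and LKO 7-2 (94.5 CPM) nearly coincided.

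No single marker passed edgeR's quasi-likelihood test after Benjamini-Hochberg adjustment over all 14076 genes, where 0.071% of all genes were called higher and 0.377% lower in knockout livers. By the unadjusted *p* (under 0.05), 10 of the 36 markers were higher and 2 were lower, against 6.7% and 6.76% of all genes. DESeq2 called 2 markers higher (*Reln* and *Colec11*) and 0 lower, against 1.42% and 1.71% of all genes. limma-voom and limma on quantile-normalised log2 counts called 0 of the 36 in either direction, against 0.355% and 0.504% of all genes. The libraries of the genotypes did not overlap for 12 markers, all higher in knockout livers, where 10.2% of all genes were apart in that direction and 9.08% in the other. Each of these 12 reached *p* = 0.1 in a two-sided exact permutation test, the smallest that 3 against 3 libraries can give. All 13 endothelial and 9 of 11 stellate markers, but 1 of 12 Kupffer markers, had a log2 fold change above 0, as did 47.9% of all genes. With library sizes alone, 13, 9 and 1 of them lay above the median of all genes.

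**Figure D2:**
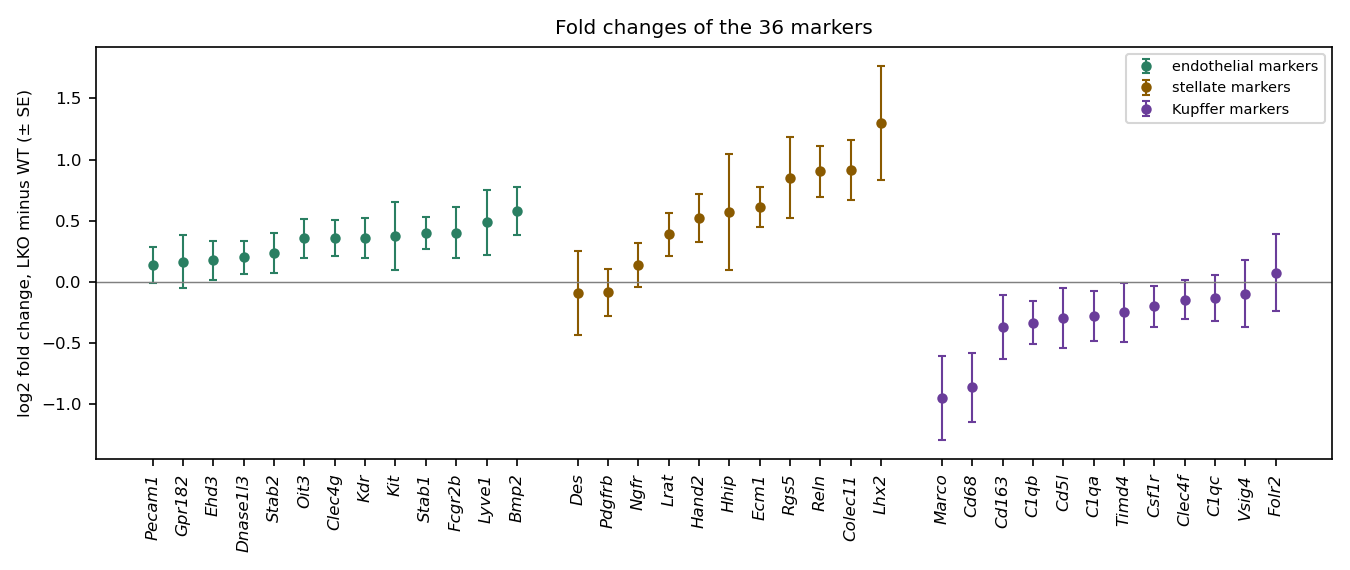
Log2 fold change (LKO minus WT, TMM-scaled edgeR fit) of the 36 markers with its SE, in order of size within each marker group. The endothelial markers ran from 0.14 to 0.58, the stellate markers from -0.090 to 1.30 and the Kupffer markers from -0.95 to 0.075; with library sizes alone the Kupffer median was 0.40 and the median of all genes 0.61.

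Of the 3 groups, the stellate markers had the largest median log2 fold change (0.57 over 11 genes), and they include *Reln* and *Colec11*, which DESeq2 called. *Reln* encodes reelin, a large secreted matrix protein that in liver marks quiescent and activated stellate cells. It stood at 4.14, 5.71 and 3.37 CPM in wild-type and at 7.60, 8.09 and 9.05 CPM in knockout livers. The lowest knockout liver was well above the highest wild-type liver. The log2 fold change was 0.90 (SE 0.21, edgeR adjusted *p* = 0.114, DESeq2 adjusted *p* = 0.0072). *Colec11* encodes collectin-11, a soluble lectin that binds microbial sugars and can start the complement cascade. Its level was 6.11, 3.44 and 3.25 CPM in wild-type livers and 7.92, 7.18 and 8.98 CPM in knockout livers. WT 7-2 stood apart from the other wild-type livers, still below every knockout liver. The log2 fold change was 0.91 (SE 0.25, edgeR adjusted *p* = 0.163, DESeq2 adjusted *p* = 0.0232). Without WT 7-2 it was 1.27 and passed the edgeR test (adjusted *p* = 0.0259), the only marker called when any 1 library was left out.

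The 250 bases before the start of *Reln* and *Colec11* are shown because DESeq2 called these genes, and they were searched on both strands for 3 short motifs. These were CTTTGAT, which TCF/LEF factors including TCF7L2 bind, AGATAA, bound by factors of the GATA family, among them GATA4 of stellate and sinusoidal endothelial cells, and GAGGAA, the core bound by the macrophage factor PU.1. Sequences are from RefSeq (GRCm38.p6), written 5′ to 3′ on the gene's strand with motif matches in capitals. The *Reln* window lies at chr5:22344706-22344955 on the minus strand and held none of the 3 motifs, and the *Colec11* window at chr12:28623331-28623580 on the minus strand held 1 AGATAA. The *Colec11* window precedes 1 annotated start that lies inside the full extent of the gene.
Reln: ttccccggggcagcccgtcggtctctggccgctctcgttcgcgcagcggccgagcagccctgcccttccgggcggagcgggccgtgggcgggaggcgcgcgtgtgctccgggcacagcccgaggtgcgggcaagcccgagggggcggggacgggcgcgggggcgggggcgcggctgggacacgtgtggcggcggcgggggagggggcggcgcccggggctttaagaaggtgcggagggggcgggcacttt
Colec11: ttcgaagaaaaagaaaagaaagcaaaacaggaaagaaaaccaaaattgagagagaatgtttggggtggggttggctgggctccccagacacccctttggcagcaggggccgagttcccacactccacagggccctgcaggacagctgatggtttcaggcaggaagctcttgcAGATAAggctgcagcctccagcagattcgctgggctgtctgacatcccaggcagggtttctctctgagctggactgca

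The other stellate markers that did not overlap between the genotypes were *Ecm1*, *Lrat*, *Hand2*, *Rgs5* and *Lhx2*. *Ecm1* encodes extracellular matrix protein 1, which holds latent TGF-beta in the matrix and which hepatocytes also make. Its level was 13.9, 15.5 and 11.0 CPM in wild-type livers and 22.1, 18.1 and 21.8 CPM in knockout livers. This was a log2 fold change of 0.61 (SE 0.17, edgeR adjusted *p* = 0.166, DESeq2 adjusted *p* = 0.0504). *Lrat* encodes lecithin retinol acyltransferase, the enzyme that makes the retinyl esters stored by stellate cells. It stood at 4.38, 3.67 and 4.48 CPM in wild-type and at 6.26, 5.04 and 5.08 CPM in knockout livers, and differed by 0.39 on the log2 scale (SE 0.17, edgeR adjusted *p* = 0.371). *Hand2* encodes a transcription factor of mesenchymal cells. It was at 2.92, 2.21 and 2.37 CPM in wild-type and at 3.86, 3.56 and 3.35 CPM in knockout livers (log2 fold change 0.52, SE 0.19, adjusted *p* = 0.286). In all 3 of these genes the lowest knockout liver stood closer to the highest wild-type liver, as a ratio, than for *Reln*.

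*Rgs5*, a regulator of G protein signalling found in pericytes and stellate cells, and *Lhx2*, a transcription factor that holds stellate cells quiescent, were low. *Rgs5* stood at 0.843, 1.15 and 0.735 CPM in wild-type and at 1.16, 1.45 and 2.32 CPM in knockout livers (log2 fold change 0.85, SE 0.33, adjusted *p* = 0.309). WT 8-1 and LKO 7-2 were nearly level, and LKO 8-3 was highest. *Lhx2* was at 0.241, 0.275 and 0.118 CPM in wild-type and at 0.685, 0.343 and 0.546 CPM in knockout livers. It had the largest log2 fold change of the 36 markers (1.30, SE 0.47, adjusted *p* = 0.269), resting on 8 to 58 counts per library.

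The remaining 4 stellate markers overlapped between the genotypes. *Hhip*, an inhibitor of Hedgehog ligands, had 14 to 54 counts per library, and its log2 fold change was 0.57 (SE 0.47), between 0.31 and 1.14 when each library was left out. *Ngfr*, the p75 neurotrophin receptor, was at 4.29 ± 0.521 CPM in wild-type livers and 4.71 ± 0.636 CPM in knockout livers, a log2 fold change of 0.14 (SE 0.18). *Pdgfrb*, the receptor for the platelet-derived growth factor that drives stellate cell division, was at 2.88 ± 0.162 and 2.72 ± 0.282 CPM, a log2 fold change of -0.086 (SE 0.19). *Des* encodes the intermediate filament desmin, which smooth muscle shares with stellate cells. It was at 4.74, 1.54 and 3.98 CPM in wild-type and at 3.21, 3.31 and 3.10 CPM in knockout livers. The knockout livers were close together and lay inside the wild-type range, which WT 8-1 widened (log2 fold change -0.090, SE 0.34).

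**Figure D3:**
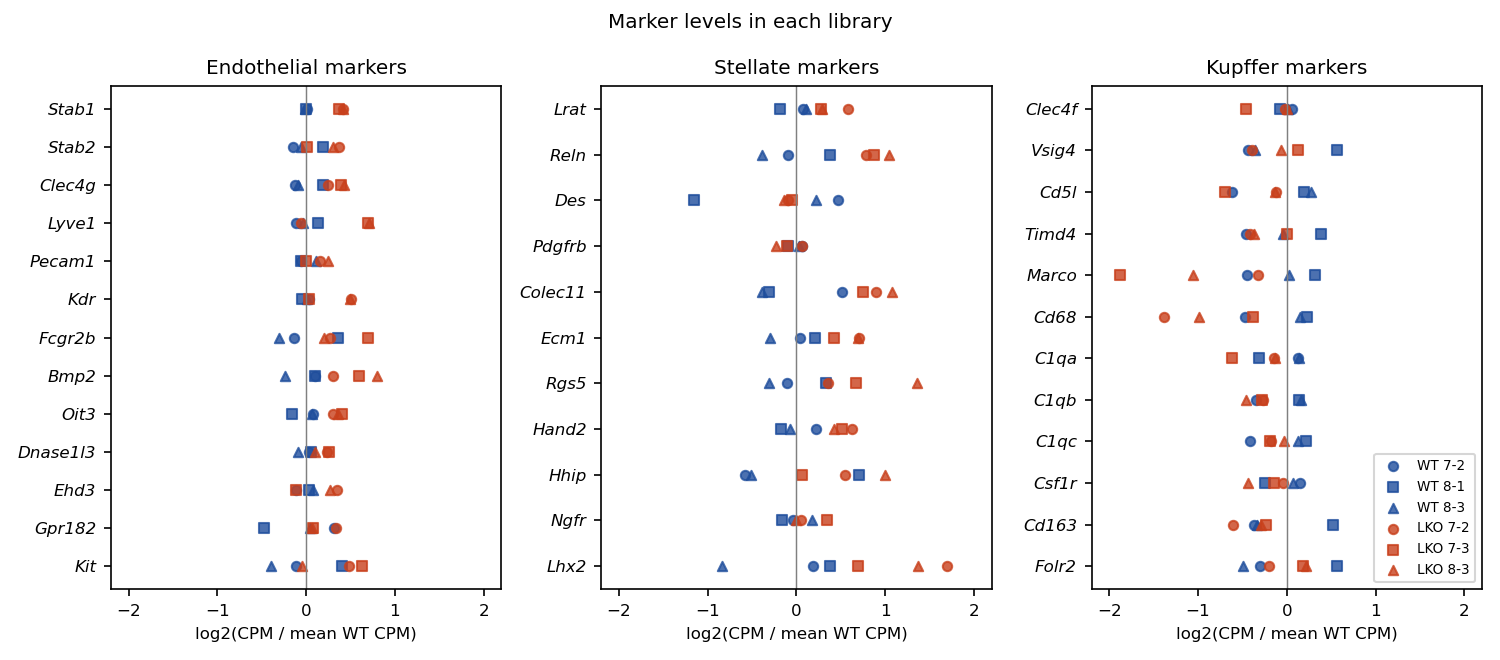
Level of each of the 36 markers in each library as log2 of its CPM (TMM-scaled) over the wild-type mean, with 1 symbol per library, wild-type in blue and knockout in red. Knockout symbols lie right of all wild-type symbols for 5 endothelial and 7 stellate markers and for 0 Kupffer markers, and WT 8-1 is highest for 7 of the 12 Kupffer markers.

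The endothelial markers shared a small difference in 1 direction, with a median log2 fold change of 0.36 over the 13 genes, against -0.017 over all tested genes. *Stab1*, the scavenger receptor stabilin 1, was the most even of them within each genotype. It stood at 8.41, 8.35 and 8.30 CPM in wild-type and at 11.1, 10.8 and 11.1 CPM in knockout livers, a clear gap between narrow groups. Its log2 fold change was 0.40 (SE 0.13, edgeR adjusted *p* = 0.243). *Stab2*, stabilin 2, which takes up hyaluronan, overlapped, with 9.01 ± 1.12 CPM in wild-type livers and 10.6 ± 1.36 CPM in knockout livers (log2 fold change 0.23). *Clec4g*, a C-type lectin of sinusoidal endothelium, was at 10.9, 13.7 and 11.2 CPM in wild-type and at 14.1, 15.7 and 16.1 CPM in knockout livers. WT 8-1 and LKO 7-2 were the closest pair across the genotypes (log2 fold change 0.36, SE 0.15, adjusted *p* = 0.337).

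*Bmp2*, the ligand that acts on hepatocytes to raise hepcidin, had the largest endothelial log2 fold change. It stood at 3.70, 3.70 and 2.92 CPM in wild-type and at 4.26, 5.19 and 5.99 CPM in knockout livers. The groups did not overlap (log2 fold change 0.58, SE 0.19, adjusted *p* = 0.247, DESeq2 adjusted *p* = 0.163). *Oit3*, a secreted zona pellucida domain protein of sinusoidal endothelium, was at 4.21, 3.58 and 4.19 CPM in wild-type and at 4.92, 5.29 and 5.12 CPM in knockout livers (log2 fold change 0.36, adjusted *p* = 0.374). *Dnase1l3*, a secreted nuclease that degrades DNA in circulating chromatin, was at 18.5, 18.8 and 17.0 CPM in wild-type and at 21.3, 21.7 and 19.4 CPM in knockout livers. These groups were apart by a small margin, by 0.20 on the log2 scale (SE 0.13, edgeR adjusted *p* = 0.530).

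For *Kdr* (VEGF receptor 2) the level was 10.6, 10.1 and 10.4 CPM in wild-type livers and 14.7, 10.6 and 14.6 CPM in knockout livers. LKO 7-3 was level with the wild-type livers while the other knockout livers were above all of them (log2 fold change 0.36, SE 0.16, adjusted *p* = 0.375). *Ehd3*, a membrane traffic protein, had a like pattern, with LKO 7-3 at 16.6 CPM just below every wild-type liver and the other knockout livers at 22.9 and 21.7 CPM (log2 fold change 0.18). *Fcgr2b*, the inhibitory IgG receptor, differed the other way in that liver, which was its highest at 16.1 CPM, and its log2 fold change was 0.40 (SE 0.21). *Lyve1*, a hyaluronan receptor, was at 1.44 to 1.72 CPM in wild-type and at 1.50, 2.54 and 2.55 CPM in knockout livers (log2 fold change 0.49, SE 0.26). *Pecam1* (CD31), which all endothelial cells carry, was at 7.24 ± 0.510 CPM in wild-type livers and 7.97 ± 0.680 CPM in knockout livers and had the smallest endothelial log2 fold change, 0.14. *Gpr182*, an atypical chemokine receptor, and *Kit*, the stem cell factor receptor that in liver marks pericentral endothelium as well as mast cells, overlapped with log2 fold changes of 0.17 and 0.38.

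No Kupffer marker was apart between the genotypes or passed an adjusted test in edgeR or DESeq2, and with TMM scaling the 12 had a median log2 fold change of -0.26 that became 0.40 with library sizes alone, against a median of 0.61 for all genes. The 2 markers under an unadjusted *p* of 0.05 were *Marco* and *Cd68*, and both kept a log2 fold change below 0 in every scaling tried. *Marco*, a scavenger receptor for bacteria that marks periportal Kupffer cells, was at 8.94, 15.2 and 12.3 CPM in wild-type and at 9.73, 3.29 and 5.86 CPM in knockout livers. LKO 7-2 was above WT 7-2, so the groups overlapped. Its log2 fold change was -0.95 (SE 0.34, edgeR adjusted *p* = 0.279, DESeq2 adjusted *p* = 0.0779), between -1.41 and -0.64 when each library was left out. *Cd68*, a lysosomal protein of all macrophages, was at 3.88, 6.28 and 5.97 CPM in wild-type and at 2.07, 4.14 and 2.70 CPM in knockout livers. LKO 7-3 was above WT 7-2, and the log2 fold change was -0.86 (SE 0.28, edgeR adjusted *p* = 0.237, DESeq2 adjusted *p* = 0.0778).

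The 250 bases before these genes are shown for the same motif search. *Marco* has its window at chr1:120505025-120505274 and *Cd68* at chr11:69666171-69666420, both on the minus strand, and each held 1 GAGGAA, in capitals.
Marco: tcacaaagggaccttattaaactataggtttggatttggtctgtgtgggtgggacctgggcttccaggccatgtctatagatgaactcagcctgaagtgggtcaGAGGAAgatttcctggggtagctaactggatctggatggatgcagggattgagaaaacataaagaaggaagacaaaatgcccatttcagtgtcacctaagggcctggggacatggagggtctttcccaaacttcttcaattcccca
Cd68: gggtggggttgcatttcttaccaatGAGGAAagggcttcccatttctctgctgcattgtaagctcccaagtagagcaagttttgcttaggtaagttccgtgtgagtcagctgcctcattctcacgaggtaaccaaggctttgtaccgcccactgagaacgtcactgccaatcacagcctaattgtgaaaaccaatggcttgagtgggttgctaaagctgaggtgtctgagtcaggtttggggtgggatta
GAGGAA was in the windows of 6 of the 10 Kupffer markers that have one in RefSeq (*C1qb*, *C1qc*, *Cd5l*, *Cd68*, *Marco* and *Vsig4*), of 2 of 10 stellate markers (*Lhx2* and *Rgs5*) and of 2 of 7 endothelial markers (*Kit* and *Stab1*), against 23.3% of all 32851 windows. AGATAA was in 3 of the 10 stellate windows (*Colec11*, *Hand2* and *Rgs5*) and in 0 of the others, against 9.99% of all windows. CTTTGAT was in 0 of the 27 marker windows, against 3.21% of all windows. Each printed window held at most 1 match, so none overlap there. A match of these letters is a description of the window and not a binding site.

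With TMM scaling, the other Kupffer markers differed less between the genotypes than *Marco* and *Cd68*. *Clec4f*, a galactose-binding lectin that in mouse liver marks Kupffer cells, was at 22.3, 20.3 and 21.7 CPM in wild-type and at 21.1, 15.5 and 21.5 CPM in knockout livers. LKO 7-3 was the lowest and the other 5 livers were level (log2 fold change -0.15, SE 0.16). *Cd5l*, a secreted inhibitor of macrophage apoptosis, ranged from 12.7 to 23.6 CPM in wild-type and from 12.0 to 18.0 CPM in knockout livers (log2 fold change -0.29, SE 0.25). *Timd4*, the phosphatidylserine receptor of long-lived resident macrophages, was at 3.71 ± 1.07 and 3.13 ± 0.511 CPM (log2 fold change -0.25), and *Vsig4*, a complement receptor, at 5.13 ± 2.14 and 4.82 ± 0.856 CPM (log2 fold change -0.095). *Cd163*, the hemoglobin-haptoglobin receptor, had a log2 fold change of -0.37 (SE 0.26), and *Folr2*, folate receptor beta, one of 0.075 (SE 0.31), the only Kupffer marker above 0. Without WT 8-1, the log2 fold changes of *Cd163*, *Timd4* and *C1qc* were -0.0065, -0.0024 and -0.0024. *Csf1r*, the receptor for the growth factor on which macrophages depend, was at 15.3 ± 2.15 CPM in wild-type livers and 13.3 ± 1.80 CPM in knockout livers (log2 fold change -0.20). With library sizes alone, the log2 fold changes of *Clec4f*, *Cd5l*, *Timd4*, *Vsig4*, *Cd163* and *Csf1r* were above 0 and below the median of all genes.

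*C1qa*, *C1qb* and *C1qc* encode the chains of complement C1q and lie next to each other on chromosome 4 (from 136880126 to 136898844 in mm10). Their log2 fold changes were -0.28 (SE 0.20), -0.33 (SE 0.18) and -0.13 (SE 0.19) with TMM scaling, and 0.33, 0.32 and 0.54 with library sizes alone. Although these chains form 1 complex, their levels did not keep a fixed ratio over the libraries. *C1qb* over *C1qa* was 1.10, 2.10 and 1.56 in wild-type and 1.41, 1.95 and 1.23 in knockout livers, so libraries of both genotypes were among the high and the low ones. *C1qb* over *C1qc* was steadier, at 1.40, 1.27 and 1.37 in wild-type and 1.26, 1.27 and 0.993 in knockout livers, with LKO 8-3 lowest.

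WT 8-1 was, with TMM scaling, the highest library for 7 of the 12 Kupffer markers, WT 8-3 for 3 and WT 7-2 for 2. On that scale no Kupffer marker peaked in a knockout liver. Scaled by library sizes alone, the summed Kupffer level was 92.4, 74.9 and 94.8 CPM in wild-type livers. In knockout livers it was 132, 88.3 and 114 CPM. WT 8-1 was then the lowest library and LKO 7-2 the highest, so this ranking depends on the scaling. The labels do not give the meaning of their leading number, 7 or 8. Among the wild-type livers this number ran along with the TMM-scaled Kupffer level, but not with the level scaled by library sizes alone. Among the libraries numbered 7, the median log2 difference between the genotypes was 0.34 for endothelial, 0.36 for stellate and 0.017 for Kupffer markers, with 12 of 13, 9 of 11 and 6 of 12 above 0. Among those numbered 8 it was 0.27, 0.73 and -0.36, with 12 of 13, 9 of 11 and 2 of 12 above 0. Number 7 set 2 knockout livers against 1 wild-type liver, and number 8 the reverse. The endothelial and stellate medians were above 0 under both numbers, and the Kupffer median, with TMM scaling, lay near 0 under 7 and below 0 under 8. The difference between the numbers was not tested.

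Levels per transcript length allow the markers to be set in order. With CPM divided by the length of the canonical transcript in kb, *Cd5l* (9.57 CPM per kb in wild-type livers), *Clec4f* (8.67) and *Marco* (6.31) were the highest of the 36. *Cd5l* and *Clec4f* differed by less than the spread between wild-type livers. As a ratio of highest to lowest, the stellate markers covered the widest range, from *Ecm1* (5.07) and *Colec11* (2.69) to *Rgs5* (0.220), *Lhx2* (0.0739) and *Hhip* (0.0346). Endothelial markers ran from *Ehd3* (4.83), *Dnase1l3* (3.81), *Clec4g* (3.46) and *Fcgr2b* (2.92) to *Lyve1* (0.378) and *Kit* (0.373). In knockout livers *Ecm1* (7.75 CPM per kb) was close to *Clec4f* (7.84) and *Cd5l* (7.81), while *Marco* was at 3.27.

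**Figure D4:**
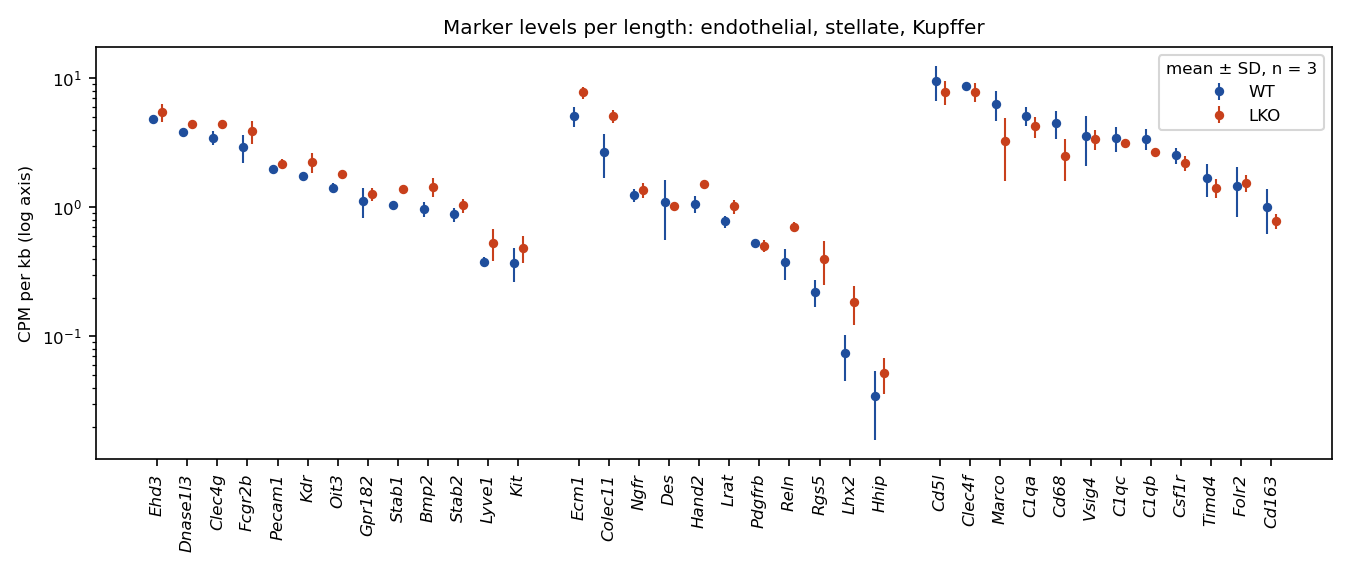
Mean CPM (TMM-scaled) per kb of canonical transcript for each marker, on a log axis, in wild-type (blue) and knockout (red) livers with the SD over 3 libraries. Within each group genes are in order of their wild-type level, from *Cd5l* at 9.57 to *Hhip* at 0.0346 CPM per kb.

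Further genes of the same cell types were examined as lists, which were also chosen with earlier results known, and edgeR called 0 genes of any of them at the adjusted threshold. Of 29 other endothelial genes, 24 had a log2 fold change above 0 (median 0.25), where 47.9% of all genes were above 0. By the unadjusted *p* (under 0.05), 5 were higher and 0 were lower, against 6.7% and 6.76% of all genes, and DESeq2 called 2 of them higher, against 1.42%. These 2 were *Flt1*, VEGF receptor 1, and *Mrc1*, the mannose receptor that sinusoidal endothelium shares with macrophages. *Flt1* was at 2.60, 2.47 and 2.37 CPM in wild-type and at 4.10, 4.16 and 4.28 CPM in knockout livers (log2 fold change 0.75, SE 0.17, adjusted *p* = 0.113, DESeq2 adjusted *p* = 0.0174). *Mrc1* was at 10.7, 11.6 and 8.74 CPM in wild-type and at 16.1, 14.9 and 17.6 CPM in knockout livers (log2 fold change 0.64, SE 0.15, adjusted *p* = 0.132, DESeq2 adjusted *p* = 0.0257). Neither gene overlapped between the genotypes.

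Of 22 other stellate and fibrogenic genes, 20 were tested and 13 of these were above 0 (median 0.15), and by the unadjusted *p* (under 0.05) 6 were higher and 2 were lower, against 6.7% and 6.76% of all genes (and 47.9% of all genes above 0). DESeq2 called *Abcc9*, a potassium channel subunit of pericytes, and *Dcn*, the matrix proteoglycan decorin, higher, where it called 1.42% of all genes higher and 1.71% lower. *Abcc9* was at 5.43, 5.14 and 4.19 CPM in wild-type and at 9.29, 8.13 and 9.38 CPM in knockout livers (log2 fold change 0.86, SE 0.16, adjusted *p* = 0.0691, DESeq2 adjusted *p* = 0.00168). *Dcn* was at 17.5, 18.9 and 11.1 CPM in wild-type and at 28.9, 36.6 and 28.3 CPM in knockout livers (log2 fold change 0.98, SE 0.21, adjusted *p* = 0.0927, DESeq2 adjusted *p* = 0.00169). DESeq2 called *Acta2* lower, which is named here after its values were seen. *Acta2*, smooth muscle actin, which marks activated stellate cells and vessel walls, was at 5.36, 3.85 and 5.78 CPM in wild-type and at 3.12, 3.20 and 2.59 CPM in knockout livers (log2 fold change -0.75, adjusted *p* = 0.167, DESeq2 adjusted *p* = 0.0498). With TMM scaling, the stellate lists thus held genes that DESeq2 called in both directions.

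Of 24 other macrophage and monocyte genes, 23 were tested and 12 of these were above 0 (median 0.0039), and by the unadjusted *p* (under 0.05) 2 were higher and 2 were lower, both near the 6.7% and 6.76% of all genes. *Id3*, a transcriptional regulator needed for Kupffer cell identity and also made by endothelial cells, was at 2.65, 3.12 and 2.65 CPM in wild-type and at 4.16, 8.84 and 5.12 CPM in knockout livers (log2 fold change 1.10, SE 0.27, adjusted *p* = 0.137, DESeq2 adjusted *p* = 0.00696). *Cd14*, the lipopolysaccharide co-receptor, was at 1.04, 0.908 and 2.20 CPM in wild-type and at 0.331, 0.817 and 0.383 CPM in knockout livers (log2 fold change -1.44, SE 0.46, adjusted *p* = 0.228). Both genes were apart between the genotypes, in opposite directions.

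**Figure D5:**
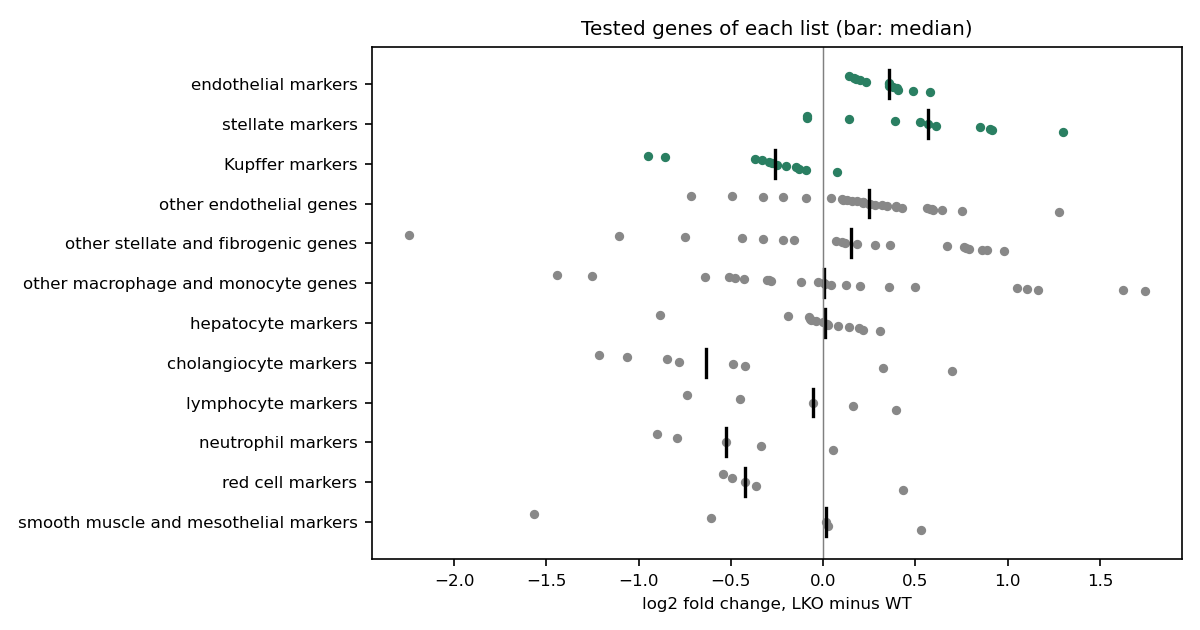
Log2 fold change (LKO minus WT, TMM-scaled edgeR fit) of every tested gene of each list, 1 point per gene, with the median as a bar and the 36 markers in green. The medians are 0.36, 0.57 and -0.26 for the endothelial, stellate and Kupffer markers, and -0.64 for cholangiocyte markers; with library sizes alone the Kupffer median is 0.40.

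Markers of the other cells of the tissue were read to check what the libraries hold. *Alb*, the albumin gene of hepatocytes, was at 30200 to 42531 CPM, so the tissue was liver by its defining marker. The 14 hepatocyte markers had a median log2 fold change of 0.012 and summed to 97151 to 103802 CPM in wild-type livers and 82865 to 117086 CPM in knockout livers. The hepatocyte genes with the smallest *p* were *Fgb*, a fibrinogen chain (log2 fold change -0.88, DESeq2 adjusted *p* = 0.0107), and *Cps1*, a urea cycle enzyme (0.31). *Krt19*, which defines cholangiocytes, was at 2.44, 0.741 and 0.970 CPM in wild-type and at 0.673, 0.738 and 0.882 CPM in knockout livers, with WT 7-2 highest. Of the 9 cholangiocyte markers, 8 were tested and 6 of these were below 0 (median -0.64), and the smallest *p* were those of *Krt7* (-1.21) and *Tspan8* (-1.06). The summed level of all 9 was 32.7 to 54.6 CPM in wild-type livers and 29.0 to 35.2 CPM in knockout livers, which overlapped.

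The markers read as defining lymphocytes and neutrophils (*Cd3e*, *Cd79a* and *S100a8*) were at 1.16 CPM or less in every liver. *Cd3e* of T cells was at 0.181 to 0.526 CPM in wild-type livers and 0.186 to 0.619 CPM in knockout livers, and *Cd79a* of B cells stayed at 0.142 CPM or less in every liver and below the filter. *Cxcr2*, a chemokine receptor on the neutrophil list, was at 7.13, 7.02 and 7.60 CPM in wild-type and at 3.61, 6.16 and 2.82 CPM in knockout livers, and the genotypes did not overlap (log2 fold change -0.79, SE 0.26, adjusted *p* = 0.243). *S100a8* of neutrophils was at 0.196, 1.16 and 1.06 CPM in wild-type and at 0.354, 1.01 and 0.325 CPM in knockout livers. WT 7-2 was the lowest wild-type liver for *S100a8*, as it was for *Marco*, *Cd68* and *Cd5l*. This did not hold for every Kupffer marker. With TMM scaling, WT 7-2 was the highest of the 6 libraries for 2 of the 12 (*Clec4f* and *Csf1r*) and the lowest for 3. All 13 genes of the lymphocyte list summed to 3.85 to 5.58 CPM in wild-type livers and 4.69 to 5.27 CPM in knockout livers. *Ptprc*, which other leukocytes also carry, averaged 2.18 CPM of this in wild-type livers and 2.87 CPM in knockout livers. Of the 13, 5 were tested, and the smallest *p* were those of *Ptprc* (log2 fold change 0.40) and *Gzma* (-0.74). All 7 genes of the neutrophil list summed to 8.52 to 12.4 CPM in wild-type livers and 4.88 to 11.5 CPM in knockout livers. *Cxcr2* was the largest part of this sum in every library. In this list 5 genes were tested, and the smallest *p* were those of *Cxcr2* and *Retnlg* (log2 fold change -0.90). All 6 red cell markers, 5 of them tested (*Alas2* 0.43 and *Hbb-bt* -0.42), summed to 359 to 647 CPM in wild-type livers and 345 to 411 CPM in knockout livers. Among the 5 of 8 smooth muscle and mesothelial markers tested, DESeq2 called *Actg2* lower (log2 fold change -1.57, DESeq2 adjusted *p* = 0.0297), while *Lmod1* was at 0.53, and the sums of all 8 were 3.67 to 5.39 CPM in wild-type livers and 3.53 to 5.68 CPM in knockout livers. The part of these cells and of the *Mup* share in the marker differences was not tested.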

How the data were processed

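The files hold counts of reads per gene, whole numbers as the authors deposited them, with 1 file for each of the 6 liver libraries. Per the study's methods, coverage in Bedtools was used, and both uniquely and multiply aligned reads entered the counts. The submitters' notes name TopHat and the build mm10, without an aligner version, an annotation or a strand setting, and the library kit was directional. The quantile normalisation of the study was a later step. Genotypes were compared on these counts by the quasi-likelihood test of edgeR 4.0.16 (with limma 3.58.1 in R 4.3.3), with genotype as the single term, TMM factors and filterByExpr (minimum count 10), which left 14076 genes. Adjusted *p* is the Benjamini-Hochberg value over all of them, called under 0.05. The biological coefficient of variation was 23.9%. No 2 libraries agreed within sampling noise (smallest chi-square per degree of freedom 188). Fits were tested on simulated data. Gene positions and promoters are from RefSeq (GRCm38.p6), and transcript lengths from GENCODE vM39.

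The markers, lists and tests were chosen with earlier results of these data known. All 36 markers are named, and of each other list the genes called or otherwise the 2 with the smallest *p*, besides *Tcf7l2*, *Alb*, *Krt19*, *Cd3e*, *Cd79a* and *S100a8*. Alternatives were DESeq2 1.42.0, limma-voom, quantile-normalised log2(count + 1) values with limma, other scalings and filters, each library left out, and a replicate block.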

Additional observations from a re-analysis of the deposited data

How the results depend on the processing

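The number of markers called higher was 0 with edgeR, 2 with DESeq2, 19 with library sizes alone, and 0 to 1 when each library was left out (1 without WT 7-2, *Colec11*). No marker was called lower under any alternative, and over all genes the calls ranged from 24 (without WT 8-1) to 87 (without WT 7-2) around 63, with 440 in DESeq2 and 3024 with library sizes alone.

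Library sizes alone gave medians of 0.99 for endothelial, 1.26 for stellate and 0.40 for Kupffer markers, where the median of all genes was 0.61. Relative to that shift the medians were 0.38, 0.65 and -0.21. This scaling turned 11 markers above 0, namely *Csf1r* (0.40), *Cd163* (0.32), *C1qa* (0.33), *C1qb* (0.32), *C1qc* (0.54), *Cd5l* (0.40), *Clec4f* (0.48), *Vsig4* (0.59), *Timd4* (0.42), *Pdgfrb* (0.54) and *Des* (0.44). *Des* was also above 0 with quantile-normalised counts (0.096) and limma-voom (0.10).

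With each library left out, the medians ranged from 0.27 to 0.35 (endothelial), 0.48 to 0.73 (stellate) and -0.36 to -0.18 (Kupffer). The direction turned for *Des* (-0.44 to 0.23), *Folr2* (-0.12 to 0.48), *Gpr182* (-0.018 to 0.36) and *Vsig4* (-0.27 to 0.31).

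Same-numbered libraries did not deviate together (correlation 0.0079 for 7-2 and -0.0069 for 8-3), so the numbers were not taken as pairs. A replicate block on the whole label number called 0 markers and gave medians of 0.41 (endothelial), 0.82 (stellate) and -0.11 (Kupffer). It turned *C1qc* (0.041), *Cd5l* (0.044), *Vsig4* (0.17) and *Ngfr* (-0.051). Its genotype difference rests on the numbers found in both genotypes, 7-2 and 8-3, as WT 8-1 and LKO 7-3 each stand alone in their block. A replicate block on the leading number gave medians of 0.34, 0.62 and -0.19, with *C1qc* (0.015) and *Vsig4* (0.039) turned. RLE and upper-quartile factors, scaling that left out *Rn45s* and *Mup* genes, and both other filters turned no marker, and the filter at a mean log2 count of 5 tested 34 of the 36. The causes were not tested. The lowest counts in a library were 8 for *Lhx2*, 14 for *Hhip* and 50 for *Rgs5*.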
